A study of Mus musculus with 7 samples.

Results

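The genes described here are 10 genes of the endoplasmic reticulum (ER), the compartment in which secreted and membrane proteins are folded. They are the chaperones and cofactors Hspa5, Hyou1, Sdf2l1, Dnajb9 and Pdia4, the degradation adaptor Sel1l, the stress sensors Ern1, Eif2ak3 and Atf6, and the transcription factor Xbp1. They were chosen by symbol, with earlier results of the same data known, and all 10 were found among the 23725 gene IDs of the files. Of them, 4 (40%), Hyou1, Sdf2l1, Sel1l and Pdia4, had enough counts for the test. It covered 2495 genes, 10.5% of all gene IDs. The other 6 did not pass the low count filter and are described by their counts alone.

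Osteoblasts, the cells that build bone, were sorted as GFP+ cells lacking CD45, CD31 and Terr119 from digested bone pooled with lineage-depleted marrow. The 4 tumor-bearing mice (osteoblast_tumor) carried lung tumors started 14 weeks earlier by adenovirus with Cre recombinase given into the trachea, and the 3 tumor-free mice (osteoblast_ctrl) carried none. All 7 were C57BL/6 males of the genotype KrasLSL-G12D/WT;p53Flox/Flox (KP) with the Ocn GFP reporter, in which osteocalcin regulatory sequence marks osteoblasts. The labels do not say what the tumor-free mice received in place of the virus. Ages were 23 weeks for tumor-bearing replicate 4 and tumor-free replicate 3, and 31 weeks for the other 5 mice. Each mouse gave 1 library of transcript 3′ ends from 2000 cells.

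The libraries held 77127 to 169774 counts in tumor-bearing mice and 102144 to 122911 counts in tumor-free mice. A floor of 3 counts, the upper 95% limit of 0 observed counts when only that side is limited, was worth 16.9 to 41.1 counts per 1000000 library counts (CPM). The exact 95% intervals given below limit both sides and reach 3.69 counts for 0 observed counts. All 11 osteoblast markers examined had counts in some library, but unevenly. The osteocalcin gene Bglap, whose promoter marks the cells, had only 0 to 2 per library, Bglap2 0 to 1, Sp7 0 to 2 and Alpl 1 to 7. Others had more, such as Col1a1 with 23 to 96 and Runx2 with 7 to 35. Plasma cells are rich in ER chaperones. Of 10 markers of plasma and B cells, 3 had 0 counts, including Cd79a and Cd79b, and the summed level lay between 33.7 and 116 CPM in tumor-bearing and between 29.2 and 67.9 CPM in tumor-free libraries. The immunoglobulin genes Ighm, Igkc, Iglc1 and Iglc2 had no matching ID, so this sum leaves them out and does not show how many plasma cells were present. Sums in the range of the osteoblast list, 1135 to 2578 CPM, came from markers of myeloid cells. The 8 monocyte and macrophage markers summed to 1815 to 2469 CPM in tumor-bearing and 2004 to 2156 CPM in tumor-free libraries, mostly from Ms4a6c, while 4 of them, including Lyz2, Cd68 and Adgre1, had 0 counts. The 11 neutrophil markers summed to 1433 to 2044 CPM in tumor-bearing and 1576 to 2241 CPM in tumor-free libraries, mostly from Cxcr2, while 6 of them, including S100a8 and Elane, had 0 counts. The pan-leukocyte gene Ptprc had at most 2 counts per library. The part of these cells in the levels of the ER genes was not tested.

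Proteins entering the ER are bound by BiP, the product of Hspa5, which works with cofactors that open and close it on its clients. When unfolded proteins accumulate, the membrane sensors IRE1 (Ern1), PERK (Eif2ak3) and ATF6 (Atf6) switch on the unfolded protein response. IRE1 splices the transcript of Xbp1, PERK slows translation, and cleaved ATF6 and spliced XBP1 raise the genes of chaperones and of ER-associated degradation. Osteoblasts secrete large amounts of collagen and depend on this machinery.

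The classical target site of the response is the ER stress response element (ERSE), which is CCAAT, then 9 bases of any kind, then CCACG. RefSeq promoter windows of build GRCm38.p6, from 250 bases before to 50 bases after a gene's start, were at hand for 8 of the 10 genes, and the ERSE was searched on both strands together with ERSE-II (ATTGG, 1 base of any kind, then CCACG), the UPRE core (TGACGTGG) and the ATF4 element CARE (TGATG, 1 base of any kind, then AAT). A match occurred in 1 of the 8 genes. The promoter of Hspa5 (chr2:34771840-34772139, plus strand) is shown because it holds that match, an ERSE, in capitals, while its gene had almost no counts here.
Hspa5: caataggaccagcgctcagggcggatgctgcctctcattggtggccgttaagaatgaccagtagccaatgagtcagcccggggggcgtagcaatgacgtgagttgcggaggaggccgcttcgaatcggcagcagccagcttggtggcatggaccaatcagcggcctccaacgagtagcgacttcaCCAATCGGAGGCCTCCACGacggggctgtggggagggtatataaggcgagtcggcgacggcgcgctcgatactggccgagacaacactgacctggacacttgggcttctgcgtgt
Of 32851 windows of that length, 0.119% held an ERSE, 0.0365% an ERSE-II, 0.676% the UPRE core and 0.965% a CARE. A match of letters does not show binding, and the other windows had no match to these letters only.

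The stress sensors, Xbp1 and the central chaperone Hspa5 were at or near the limit of detection in every library. Xbp1, the transcription factor downstream of IRE1, Eif2ak3, which encodes PERK, and Dnajb9, a J-domain cofactor of BiP induced by XBP1, had 0 counts in all 7 libraries. Of all gene IDs, 43.8% had 0 counts. Ern1, which encodes IRE1, had 1 count, in tumor-bearing replicate 3, and 0 elsewhere. Atf6 had 0, 2, 0 and 2 counts in tumor-bearing replicates 1 to 4 and 1, 0 and 1 counts in tumor-free replicates 1 to 3. Hspa5 had 0, 1, 2 and 1 counts in tumor-bearing replicates 1 to 4 and 1, 2 and 2 counts in tumor-free replicates 1 to 3. For these genes both groups lay at or under 3 counts per library, so no fold change was computed, and a difference was not detectable from so few counts. In the same libraries the ER gene Ssr1 had 129 to 230 counts. Whether the low counts came from low RNA levels or from how the libraries were made and counted was not tested. They do not show that these genes were silent in osteoblasts.

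Together the 10 genes had 1076 counts, and the 4 genes passing the filter held 98.5% of them. Libraries of 3′ ends give about 1 fragment per transcript whatever its length, so levels are ordered by the counts themselves. Over 7 libraries these were 383 for Sel1l, 250 for Hyou1, 242 for Sdf2l1 and 185 for Pdia4. The median of genes passing the filter with a transcript was 182. Divided by the length of the longest GENCODE transcript, a step that such libraries do not call for, the order differed. Per kilobase of transcript, Sdf2l1 had 218 counts over 7 libraries, Pdia4 77.1, Sel1l 60.8 and Hyou1 50.8, against a median of 46.8 for all genes passing the filter. Hspa5 had 2.45 counts per kilobase, Atf6 0.828 and Ern1 0.144. Without tumor-free replicate 1, which held most counts of Sdf2l1, the counts were 263 for Sel1l, 190 for Hyou1, 162 for Pdia4 and 96 for Sdf2l1. Per kilobase, Sdf2l1 then had 86.6 counts, Pdia4 67.5, Sel1l 41.8 and Hyou1 38.6, against a median of 40.8. The order per kilobase of the 4 genes was the same, but without tumor-bearing replicate 3 Sel1l was lowest on that scale, at 36.5 against a median of 36.9. No other gene of the GENCODE annotation overlapped the loci of Hyou1, Sdf2l1, Sel1l, Hspa5, Xbp1 and Ern1. Pdia4 holds the microRNA gene Mir704 in an exon, and no source used here states whether counting used the strand.

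**Figure D1:**
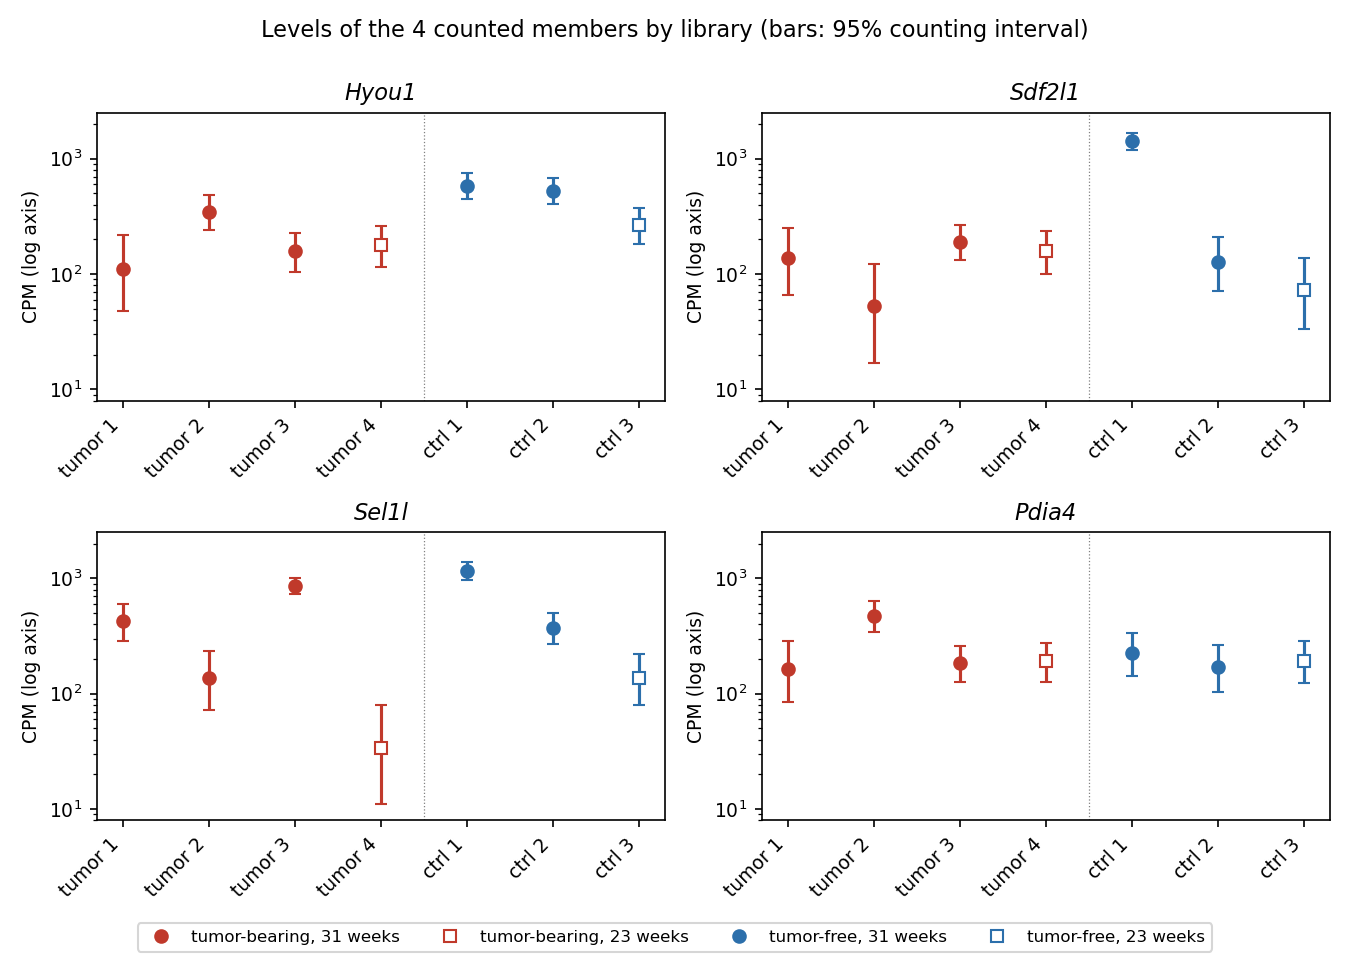
Level of Hyou1, Sdf2l1, Sel1l and Pdia4 in CPM (log axis) in each of the 4 tumor-bearing (red) and 3 tumor-free (blue) libraries, with the exact Poisson 95% interval of the count as a bar and 23-week mice as open squares. Tumor-free replicate 1 was highest for Hyou1, Sdf2l1 and Sel1l, and tumor-bearing replicate 2 for Pdia4.

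Hyou1 (chromosome 9, 44379490 to 44392369, mm10) encodes a large HSP70-like chaperone, which also serves as nucleotide exchange factor of BiP. It had 8, 33, 28 and 26 counts in tumor-bearing replicates 1 to 4 and 60, 62 and 33 counts in tumor-free replicates 1 to 3. Scaled for depth, these were 109.7, 347, 157 and 177 CPM in tumor-bearing libraries and 584, 526 and 266 CPM in tumor-free libraries. The 3 tumor-bearing replicates 1, 3 and 4 lay below every tumor-free library, but replicate 2 lay above tumor-free replicate 3, so the groups overlapped. Counting error alone gave an interval of 239 to 487 CPM for tumor-bearing replicate 2 and of 183 to 373 CPM for tumor-free replicate 3. The log2 fold change of tumor-bearing over tumor-free libraries was -1.20 (SE 0.38). Erythroid markers lay on the same side, and theirs was the only marker list examined whose sums did not overlap. The 6 measured, all with counts, summed to 75.0 to 109.7 CPM in tumor-bearing and 110.4 to 184.8 CPM in tumor-free libraries. These sums nearly touched, and came from 8 to 19 counts per library. Single markers did not separate the groups: Slc4a1 was highest in tumor-bearing replicate 3, with 4 counts. Adipocyte and stromal markers leaned the other way, with 640 to 960 CPM in tumor-bearing and 603 to 693 CPM in tumor-free libraries. The part of these cells in the level of Hyou1 was not tested. In bulk samples like these, fewer cells of a type and less RNA per cell cannot be told apart.

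Sdf2l1 (chromosome 16, 17130138 to 17132383) encodes a small ER protein that acts with J-domain cofactors of BiP and keeps clients from aggregating. Its counts were 10, 5, 34 and 23 in tumor-bearing replicates 1 to 4 and 146, 15 and 9 in tumor-free replicates 1 to 3. In CPM, the tumor-bearing libraries had 137, 52.6, 191 and 157, and the tumor-free libraries 1420, 127 and 72.5. Tumor-free replicate 1 stood alone: its interval of 1199 to 1670 CPM overlapped that of no other library, and the other tumor-free libraries lay among the tumor-bearing ones. The log2 fold change was -1.71 (SE 0.98) with that library and 0.49 (SE 0.55) without it. It was -2.60 without tumor-bearing replicate 4, where the age term took up the other 23-week mouse, so that value rests on the 31-week mice. It was -2.54 in the fit of the 31-week mice only.

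Sel1l (chromosome 12, 91806043 to 91849157) encodes the adaptor that holds the ubiquitin ligase HRD1 together for ER-associated degradation, the disposal of misfolded proteins through the cytosol. Its counts were 31, 13, 153 and 5 in tumor-bearing replicates 1 to 4 and 120, 44 and 17 in tumor-free replicates 1 to 3. The levels were 425, 137, 860 and 34.1 CPM in tumor-bearing libraries and 1167, 374 and 137 CPM in tumor-free libraries. The highest library had 34.2 times the level of the lowest, and the spread within each group was far wider than the counting intervals, which ran from 729 to 1007 CPM in tumor-bearing replicate 3 and from 11.1 to 79.6 CPM in tumor-bearing replicate 4. High and low libraries occurred in both groups, and the log2 fold change was -0.83 (SE 0.69). It was -1.68 without tumor-bearing replicate 3, -1.42 without tumor-free replicate 2, -0.17 without tumor-free replicate 1 and -0.47 without tumor-bearing replicate 2.

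Pdia4 (chromosome 6, 47796141 to 47813512) encodes a protein disulphide isomerase, one of the enzymes that form and rearrange disulphide bonds in the ER. It had 12, 45, 33 and 28 counts in tumor-bearing replicates 1 to 4 and 23, 20 and 24 counts in tumor-free replicates 1 to 3. The ratio of the highest to the lowest library, 2.87, was the smallest of the 4 genes, with 165, 473, 185 and 191 CPM in tumor-bearing libraries and 224, 170 and 193 CPM in tumor-free libraries. Apart from tumor-bearing replicate 2, the libraries of both groups lay between 165 and 224 CPM. The log2 fold change was 0.32 (SE 0.42), and -0.13 (SE 0.30) without tumor-bearing replicate 2.

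Counts from 1 library weighed differently in the 4 genes. Tumor-free replicate 1 held 60.3% of the counts of Sdf2l1, past the threshold of 40%. Sel1l lay just below it, where tumor-bearing replicate 3 held 39.9%, whereas the highest library held 24.8% of the counts of Hyou1 and 24.3% of those of Pdia4. Among all genes tested, 133 of 2495 (5.33%) had over 40% of their counts in 1 library. The residual biological coefficient of variation was 0.84 for Sdf2l1, higher than in 98.6% of the genes tested, and 0.61 for Sel1l, higher than in 94.4%. It was 0.39 for Hyou1 and 0.40 for Pdia4, against a median of 0.29 over all genes tested.

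**Figure D2:**
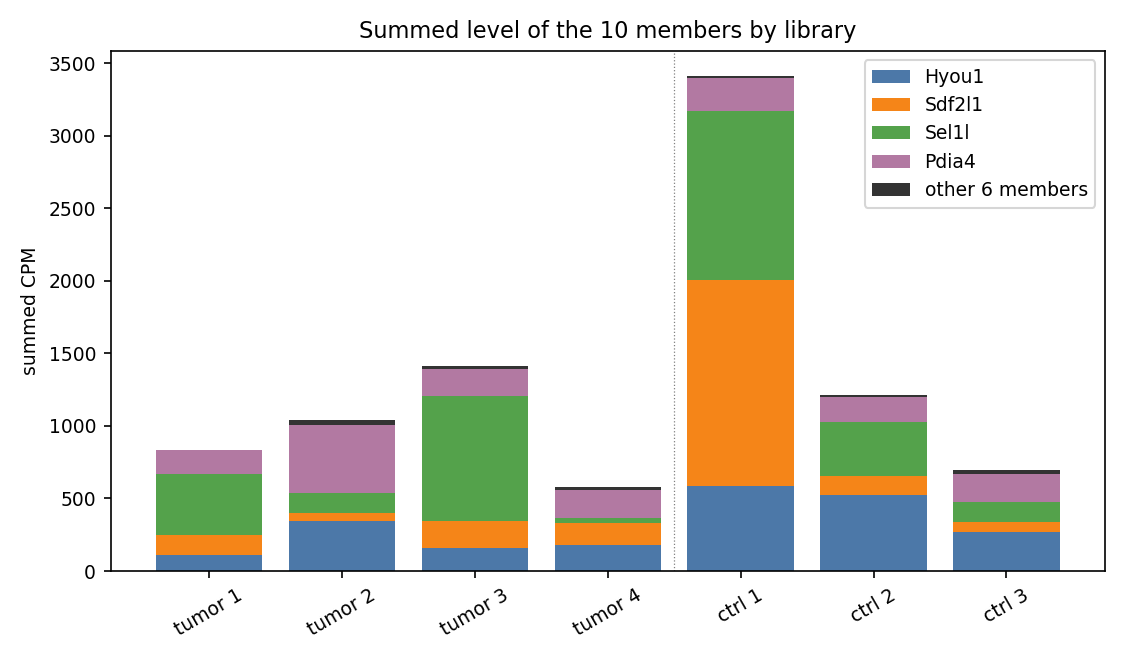
Summed CPM of the 10 genes in each library (tumor-bearing left, tumor-free right), stacked by gene. Sums ran from 580 to 1410 CPM with a tumor and reached 3414 CPM in tumor-free replicate 1, where Sdf2l1 and Sel1l made up most of the bar.

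The 4 genes passing the filter did not rank the libraries in 1 common order. The summed level of the 10 genes was 967 ± 351 CPM (SD, n = 4) in tumor-bearing and 1774 ± 1444 CPM (SD, n = 3) in tumor-free libraries, and the groups overlapped. Without tumor-free replicate 1 the tumor-free mean was 953 CPM (n = 2), below that of the tumor-bearing libraries. Sel1l held the largest part of the sum in tumor-bearing replicates 1 and 3, Pdia4 in tumor-bearing replicates 2 and 4, Sdf2l1 in tumor-free replicate 1 and Hyou1 in tumor-free replicates 2 and 3. The leading gene held between 32.9% and 61.0% of a library's counts for the 10 genes. As a measure of likeness, mean-centred log2 CPM profiles over the 7 libraries were compared by their root mean square difference, which was smallest between Hyou1 and Pdia4 (0.777) and largest between Sel1l and Pdia4 (1.64). For the genes most like each of the 4, the same measure named Ltbp1 (0.263), a matrix binding protein of latent TGF-beta, Ccdc80 (0.332) and Adra2b (0.364) for Hyou1, where the median over all genes was 0.878. Nearest to Pdia4 were Sox9 (0.139), a transcription factor of cartilage, Rictor (0.188) and Mapt (0.194), with a median of 0.583. Sdf2l1 lay nearest to Rad51c (0.474) and Sel1l to Ctbp2 (0.619), against medians of 1.39 and 1.52.

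Between tumor-bearing and tumor-free mice, 0 of the 4 genes tested were called higher and 0 lower in the age-adjusted quasi-likelihood fit of edgeR (adjusted p = 0.990 each), where 0% of the 2495 genes tested were called in either direction. DESeq2 and limma voom also called 0 genes. Since the 10 genes were chosen with this contrast known, its values are given as a description. At an unadjusted p under 0.05 stood Hyou1 alone of the 4, on the lower side, where 42 genes (1.68%) stood on that side and 25 (1%) on the higher side. The groups did not overlap for 0 of the 4 genes, against 3.53% of the genes tested. Of the 4 log2 fold changes, 3 lay below 0, with a median of -1.01 over the 4, beside a median of 0.04 over all genes tested, of which 45.9% lay below 0. Without tumor-free replicate 1, 2 of the 4 lay below 0 and their median was 0.11. The 4 genes passed a filter on counts, so this median does not speak for the 10. Only Hyou1 was farther from 0 than 2 SE.

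**Figure D3:**
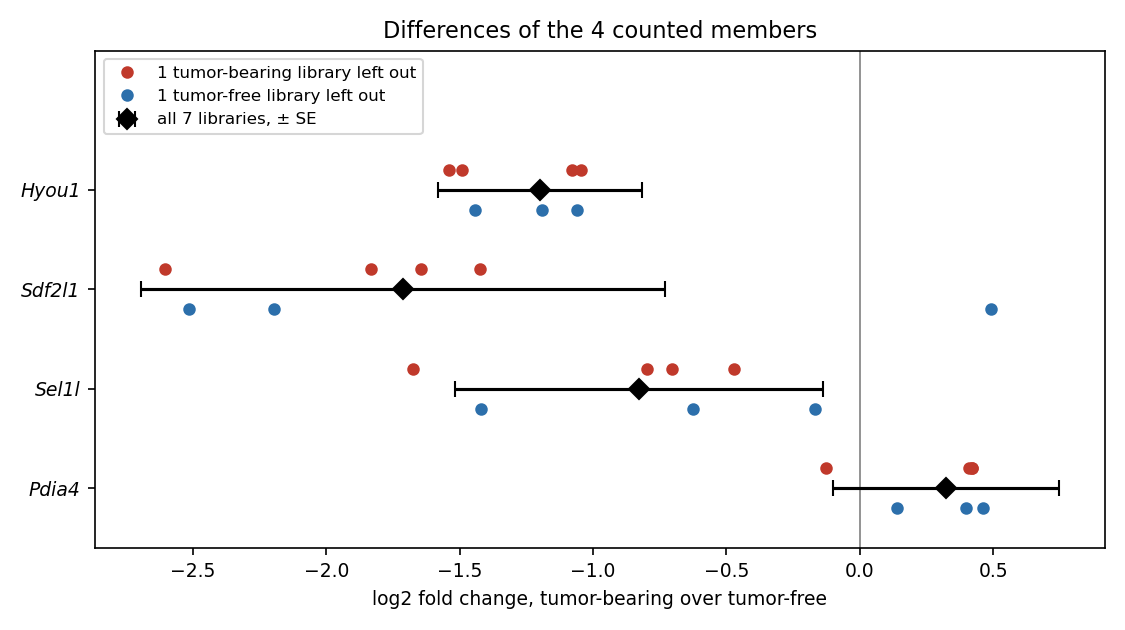
Log2 fold change of tumor-bearing over tumor-free libraries for the 4 genes tested, from the fit with age, as diamonds with ± SE, and with each library left out in turn as points. Hyou1 stayed between -1.54 and -1.04, while Sdf2l1 and Pdia4 crossed 0 without tumor-free replicate 1 and tumor-bearing replicate 2.

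Markers of bone and cartilage cells also varied between the libraries. The 11 osteoblast markers summed to between 1135 and 1756 CPM in tumor-bearing libraries and between 1531 and 2578 CPM in tumor-free libraries, with the highest sum in tumor-free replicate 1, where Hyou1, Sdf2l1 and Sel1l were also highest. The other libraries did not follow this order: tumor-bearing replicate 1 had the second highest sum and the lowest levels of Hyou1 and Pdia4, and tumor-bearing replicate 2 had the lowest sum and the highest level of Pdia4. Per 100 counts of osteoblast markers, a ratio chosen after its values were seen, Hyou1 had 6.25, 30.6, 13.5 and 13.4 counts in tumor-bearing replicates 1 to 4 and 22.6, 31 and 17.4 counts in tumor-free replicates 1 to 3, so the groups overlapped on this scale too. The 4 chondrocyte markers summed to 617 to 2785 CPM in tumor-bearing and 838 to 1031 CPM in tumor-free libraries, and Col10a1 among them had 0 counts. The highest sum was in tumor-bearing replicate 2, in which Pdia4 was highest. In that library Sox9 had 166 counts and the cartilage collagen gene Col2a1 92, the most of any library. The cartilage proteoglycan gene Acan had 7 counts there, within its range of 1 to 13 over the libraries. These counts were not scaled for depth, and this library held 98499 counts, against 169774 in tumor-bearing replicate 3. The part of these cells in the levels of the ER genes was not tested.

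Age was compared in the same fit, a comparison chosen after the values were seen. Sel1l had 34.1 and 137 CPM in the 23-week mice, against 137 to 1167 CPM in the 31-week mice, with a log2 fold change of 23 over 31 weeks of -2.97 (SE 0.92, adjusted p = 0.884, edgeR's quasi-likelihood test). Hyou1 (-0.61, SE 0.44), Sdf2l1 (-1.32, SE 1.21) and Pdia4 (-0.25, SE 0.46) did not pass either. This test called 0% of the 2495 genes, with 125 at an unadjusted p under 0.05. Only 2 mice were 23 weeks old, 1 in each group. A term for the interaction of age and tumor called 0 genes (edgeR, lowest adjusted p = 0.496, 99 genes at an unadjusted p under 0.05), and for the 4 genes its adjusted p was 0.999 each.

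Counts were few in the wider ER machinery, as they were over all gene IDs. Of 177 other genes of folding, oxidation, degradation, the sensor branches, the translocon and transport to the Golgi, 43 (24.3%) had 0 counts, against 43.8% of all gene IDs, and 14 (7.91%) passed the filter, against 10.5% of all gene IDs. None of the 14 was called higher or lower by edgeR, and 0 had an unadjusted p under 0.05, where 0% of all genes tested were called, and their log2 fold changes fell 7 below and 7 above 0, with a median of 0.02. These lists were chosen with earlier results of the data known.

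**Figure D4:**
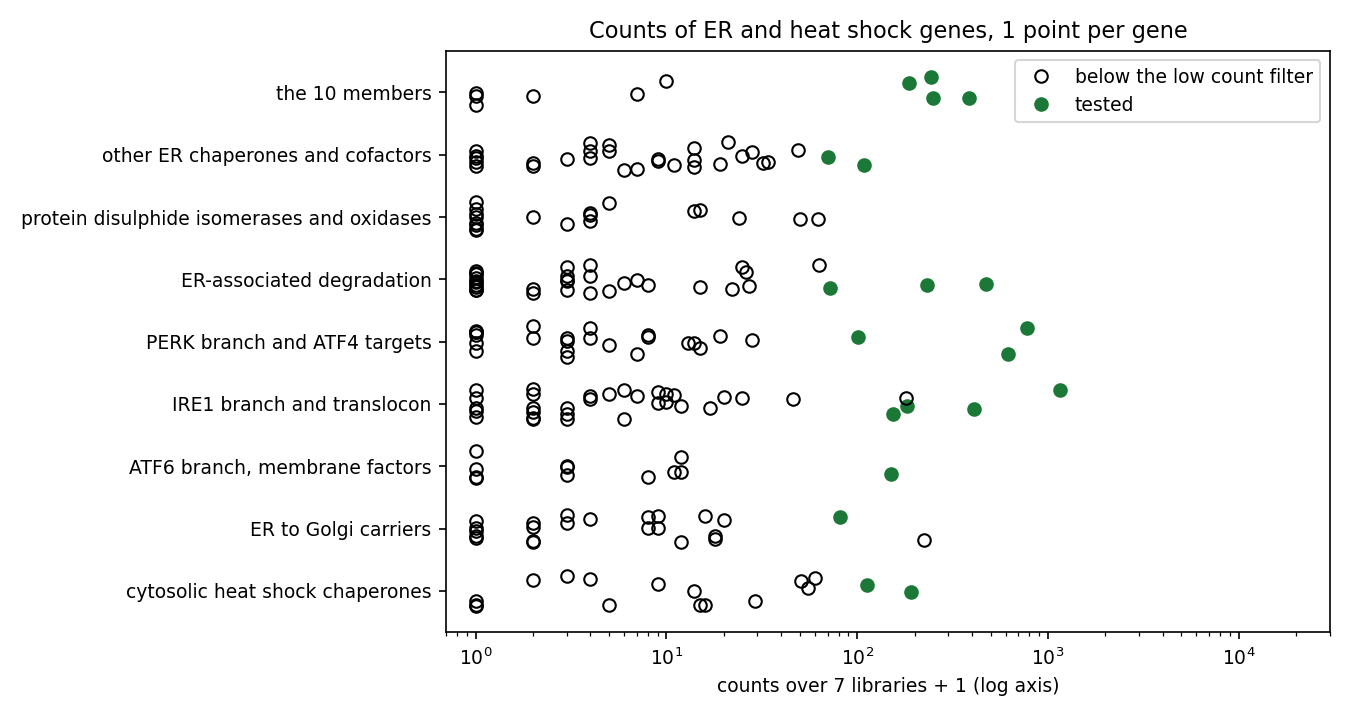
Counts over the 7 libraries, plus 1, on a log axis, for each gene of the 10 and of the lists of ER and heat shock genes, with genes passing the low count filter filled. Most genes of each list had under 100 counts in all, and 3 of the 10 had 0.

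Among the other chaperones and cofactors of the ER, 2 of 30 were tested and 0 called. Cdnf, a neurotrophic factor of the ER, had 125 ± 35.2 CPM with a tumor (SD, n = 4) and 121 ± 28.2 CPM without (SD, n = 3), and Dnajc1, a membrane J-domain protein, 87.5 ± 43.7 and 88.2 ± 27.6 CPM. Canx, Hsp90b1 and Calr, encoding the abundant chaperones calnexin, GRP94 and calreticulin, had 48, 31 and 4 counts in all 7 libraries (named after their values were seen). Of 19 disulphide isomerases and oxidases, 0 were tested and 8 had 0 counts. The 2 with most counts were the membrane oxidoreductases Tmx4, with 61 counts, and Tmx2, with 49.

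In ER-associated degradation, the pathway of Sel1l, 3 of 33 genes were tested and 0 called. Ubxn4, which recruits the extracting ATPase p97 to the ER, had 614 ± 89.4 CPM in tumor-bearing and 524 ± 68.5 CPM in tumor-free mice, with a log2 fold change of 0.21 (SE 0.22). The ubiquitin ligase gene Rnf139 had 281 ± 53.9 and 251 ± 29.3 CPM (0.19, SE 0.26), and the ubiquitin conjugating enzyme gene Ube2j2 76.2 ± 34.6 and 89.0 ± 32.6 CPM (-0.10, SE 0.46).

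In the PERK branch and among targets of ATF4, 3 of 26 genes were tested and 0 called, while Atf4 itself had 12 counts and Ddit3, which encodes CHOP, 7 (named after their values were seen). Eif2ak2, a kinase that phosphorylates eIF2alpha in response to double-stranded RNA, had 881 ± 113 CPM with a tumor and 960 ± 90.3 CPM without. The amino acid transporter subunit genes Slc3a2 and Slc7a11 had log2 fold changes of 0.39 (SE 0.34) and -0.26 (SE 0.32).

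In the IRE1 branch and translocon, 4 of 35 genes were tested and 0 called. Ssr1, a subunit of the translocon-associated complex, was the most counted ER gene, with 1797, 1356, 1292 and 1160 CPM in tumor-bearing replicates 1 to 4 and 1401, 1664 and 1306 CPM in tumor-free replicates 1 to 3. Kdelr2, a receptor that returns BiP and other residents to the ER, had 489 ± 229 CPM in tumor-bearing and 530 ± 176 CPM in tumor-free mice. The signal recognition gene Srp54a had 168 ± 45.8 and 198 ± 30.5 CPM, and Ssr3, a partner of Ssr1, 312 ± 403 and 136 ± 21.9 CPM. For Ssr3, 87 of 182 counts came from tumor-bearing replicate 2.

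For the ATF6 branch, 1 of 12 genes was tested: Mbtps2, the site-2 protease that frees ATF6 from the membrane, with 186 ± 48.4 CPM with and 170 ± 90.0 CPM without a tumor. Of the carriers from the ER to the Golgi, Mia3, which loads collagen into vesicles, was the only one tested of 23, with a log2 fold change of 0.60 (SE 0.45). Among cytosolic heat shock chaperones, set beside the ER genes, 2 of 17 were tested and 0 called. Hsp90ab1 had 183 ± 64.2 CPM in tumor-bearing and 314 ± 150 CPM in tumor-free mice (log2 fold change -0.79, SE 0.44), and Hsp90aa1 108 ± 45.2 and 165 ± 56.4 CPM (-0.59, SE 0.43). Hsp90ab1 was highest in tumor-free replicate 1, at 486 CPM, as Hyou1, Sdf2l1 and Sel1l were.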

How the data were processed

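RNA of sorted osteoblasts was made into 3′-end libraries by a custom CEL-Seq method with unique molecular identifiers, per the labels' protocols. TopHat2 2.0.10, SAMtools and build mm10 are named in the submitters' processing notes. The authors deposited raw whole-number counts, 1 file for each mouse, with genes given as Entrez IDs. How reads were counted (program, strand, collapsing of identifiers) is not stated. Intervals (exact Poisson, 95%) and floors (3 counts) cover counting error only, and that only if each count is a separate molecule. If identifiers were not collapsed, both would be too narrow. The top gene of each library reached a similar value, from 282 to 303 counts, although total counts ran from 77127 to 169774. Whether high counts were limited near that value was not tested, and the intervals do not allow for it. Genes closer to it, such as Ssr1 (up to 230 counts), Sec24b (212), Cxcr2 (229) and Ms4a6c (244), are therefore given with that reservation.

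IDs were named from the RefSeq table of GRCm38.p6, the assembly of mm10. Genes passing filterByExpr (minimum count 10, minimum total 15, by group) were scaled by TMM and tested by the robust quasi-likelihood method (glmQLFit with legacy off, then glmQLFTest) of edgeR 4.0.16 in R 4.3.3, with age as a factor and Benjamini-Hochberg adjustment at 0.05. CPM use all counts and TMM factors. The procedure was also run on simulated counts, whose outcome is not given here, so the power of the test is not stated. The genes and lists were chosen with earlier results of these data known. Named beside the 10 genes were up to 4 tested members with most counts per list, or the top 2. Transcript lengths came from GENCODE vM21. Of the plasma and B cell markers, 4 had no matching ID and 1 more is not reported here. Each library was a separate mouse. No library repeated another: the chi-square over genes, divided by its degrees of freedom, was at least 2.99 for every pair.

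The alternatives tried were DESeq2 1.42.0, voom of limma 3.58.1, RLE or total-count scaling, no filter or one of 30 counts in at least 3 libraries, a fit without age, a fit of the 31-week mice, a block for replicate number and leaving out each library. The legacy fit was added after seeing the data.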

Additional observations from a re-analysis of the deposited data

Results flagged for a closer look

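Of 28 levels examined in the 4 tumor-bearing libraries, 4 had 1 library standing apart from the other 3 by Dixon's criterion. That criterion is made for normally spread values, so the rate at which chance flags these low, skewed counts is not known. Pdia4 had 473 CPM in tumor-bearing replicate 2, against 165 to 191 CPM in the other tumor-bearing libraries. Ssr3 had 914 CPM in the same library, against 82.3 to 163 CPM in the others; chondrocyte markers were highest in it as well, and their part in these levels was not tested. Sec24b, a coat protein of vesicles leaving the ER, had 2908 CPM in tumor-bearing replicate 1 and 10.5 to 27.3 CPM in the other tumor-bearing libraries, with 212 of its 222 counts in that library. Ern1 had 5.62 CPM in tumor-bearing replicate 3 from a single count and 0 in the others, a pattern that always meets the criterion.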

How the results depend on the processing

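Under all 17 alternatives 0 genes were called, with 32 to 456 genes at an unadjusted p under 0.05 and a lowest adjusted p of 0.0693, reached with no low count filter. DESeq2 called 0 genes, with 49 at an unadjusted p under 0.05. Over these alternatives the log2 fold change of Hyou1 lay between -1.54 and -1.04 and that of Sel1l between -1.68 and -0.17, both below 0 throughout. Sdf2l1 lay between -2.60 and 0.49 with 1 library left out, and was above 0 only without tumor-free replicate 1. Its lowest value, without tumor-bearing replicate 4, rests on the 31-week mice, since the age term took up the other 23-week mouse. Pdia4 lay between -0.13 and 0.46 with 1 library left out, and was below 0 only without tumor-bearing replicate 2. The filter of 30 counts in at least 3 libraries gave no value for Sdf2l1 and Pdia4. With the replicate number as a block, without age and without tumor-bearing replicate 4, 0 genes were called, with 37 at an unadjusted p under 0.05, and Sel1l stood at -0.21 and Sdf2l1 at -1.22. The labels do not say that equal numbers pair the mice, and replicate 3 was 31 weeks old with a tumor and 23 weeks old without. Deviations of same-numbered libraries correlated at -0.207, -0.122 and -0.146, and 0 of 6 libraries correlated best with their own number. With so few pairs at this depth, these values do not settle whether mice were paired. With so few counts, 6 of the 10 genes could not be compared at all.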

Other observations

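Ern2, a close relative of Ern1 best known from the epithelium of the gut, had 180 counts where Ern1 had 1. Its counts were 2, 0, 59 and 4 in tumor-bearing replicates 1 to 4 and 104, 9 and 2 in tumor-free replicates 1 to 3, too uneven to pass the low count filter. Its levels of 331 CPM in tumor-bearing replicate 3 and 1012 CPM in tumor-free replicate 1 were in the same 2 libraries in which Sdf2l1 and Sel1l were highest. The gene was named after its values were seen, and no test was made.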
